A study of Mus musculus with 6 samples.

Results

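The nuclear genome encodes most of the proteins of oxidative phosphorylation (OXPHOS), and the genes described here were taken from the gene table by name: symbols beginning Nduf, Uqcr or Atp5, symbols beginning Cox followed by a digit from 4 to 8, and Sdha, Sdhb, Sdhc, Sdhd, Cyc1 and Cycs. Of 41386 genes in the table, 91 had such a name, and 90 of these had 10 or more reads over the 6 libraries and all 90 entered the test. Cox8c, the remaining gene, was at 0 reads in every library. Cycs, Cox6a1, Cox7b2 and Ndufaf8 fall under these names but were not among the 91, so they were not analysed here. The 90 genes were 36 of complex I, 4 of complex II, 9 of complex III, 16 of complex IV, 15 of complex V, 7 assembly factors of complex I (Ndufaf1 to Ndufaf7) and 3 that the name brings in although they are not subunits of a complex (Cox7a2l, Atp5s and Atp5sl). Ndufa4 and Ndufa4l2 are counted with complex IV, where the Ndufa4 protein is now placed.

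The RNA-seq libraries came from hippocampus of C57BL/6 mice aged 56 days, male per the study's methods, in 2 groups of 3. In the ischemia/reperfusion (I/R) group a filament closed the left middle cerebral artery for 1.5 h, after which blood flow returned for 24 h. Sham mice had the surgery without the filament. Each library was a pool of 3 hippocampi, so replicate error here is the spread between pools, and the middle cerebral artery does not by itself supply the whole hippocampus. Totals were 37493042 to 44788547 counts per library. Levels are CPM, counts relative to library sizes that had been scaled by TMM, the trimmed mean of M-values. The groups were compared by edgeR (quasi-likelihood F-test, Benjamini-Hochberg adjustment over the 18569 genes tested). DEG stands for a differentially expressed gene, one with a fold change over 1.2 either way and an adjusted p under 0.05. Markers of neurons, astrocytes and oligodendrocytes and of hippocampal regions were present in every library. The summed CPM of 10 choroid plexus markers was 42.61 in I/R replicate 3 and 43.49 in sham replicate 1, and 1620 to 4518 in the other libraries. Calls were therefore also counted without I/R replicate 3 and sham replicate 1, and with a choroid plexus covariate.

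OXPHOS takes place in the inner mitochondrial membrane. Complex I (NADH dehydrogenase) and complex II (succinate dehydrogenase) pass electrons to ubiquinone, complex III (the cytochrome bc1 complex) passes them to cytochrome c, complex IV (cytochrome c oxidase) passes them to oxygen, and complex V (ATP synthase) uses the proton gradient to make ATP. Complexes I, III, IV and V have a core that does the chemistry and many further subunits that stabilise or regulate it. All subunits of complex II are counted as core here. The core set used here also holds Uqcrc1 and Uqcrc2 of complex III and Cox4i1, Cox5a and Cox5b of complex IV. It is therefore wider than the catalytic subunits. Complex II is encoded wholly in the nucleus, whereas the other complexes also contain subunits of the mitochondrial genome, none of which was in the table (0 genes of the mitochondrial chromosome). Neurons depend on OXPHOS more than most cells, and it stops when blood flow stops.

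NRF1, GABP and YY1 are transcription factors known for binding promoters of OXPHOS genes, and the factor ERR alpha acts there with the coactivator PGC-1 alpha. RefSeq promoter windows of GRCm38.p6, 250 bases before to 50 after a gene's start, were matched for 74 of the 90 genes. An NRF1 site, spelled GCGCA and GCGC with 1 base of any kind between them, was found on either strand in 18 of 74 (24.3%), against 1189 of the 11873 tested genes with a window. The YY1 letters AAGATGGCG were found in 8 of 74 (10.8%) against 3.01%, and the ETS letters CCGGAAGTG, as bound by GABP, in 2 of 74 (2.70%) against 4.11%. The CRE letters TGACGTCA were in 4 of 74 (5.41%) against 3.38%, the ERR letters TCAAGGTCA in 2 of 74 (2.70%) against 0.328%, and TATAAA in 6 of 74 (8.11%) against 9.21%, again on both strands. Matches of the NRF1, YY1 and ETS letters did not overlap each other in the windows of the 74 genes, and a match of letters is a description of the window. The promoters below are those of the DEGs that held the NRF1 letters, 3 of which were lower and 1 (Ndufaf4) higher in I/R. Capitals mark the NRF1 letters in either orientation, and the windows run 5′ to 3′ on the strand of the gene at chr13:74350191-74350490 (minus strand, Sdha), chr9:108936398-108936697 (plus, Uqcrc1), chr4:123718137-123718436 (minus, Ndufs5) and chr4:24897833-24898132 (plus, Ndufaf4).
Sdha: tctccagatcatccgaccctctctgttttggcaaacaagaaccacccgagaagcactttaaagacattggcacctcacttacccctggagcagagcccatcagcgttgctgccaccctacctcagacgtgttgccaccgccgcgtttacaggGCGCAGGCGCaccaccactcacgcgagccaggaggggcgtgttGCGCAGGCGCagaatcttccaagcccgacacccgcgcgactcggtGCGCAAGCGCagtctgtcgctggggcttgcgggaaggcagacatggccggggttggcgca
Uqcrc1: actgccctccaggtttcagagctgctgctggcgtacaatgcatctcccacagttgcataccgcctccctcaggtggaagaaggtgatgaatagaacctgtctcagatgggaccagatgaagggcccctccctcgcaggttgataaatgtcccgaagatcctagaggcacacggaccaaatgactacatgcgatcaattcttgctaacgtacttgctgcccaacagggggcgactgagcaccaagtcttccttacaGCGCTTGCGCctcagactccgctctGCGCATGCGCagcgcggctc
Ndufs5: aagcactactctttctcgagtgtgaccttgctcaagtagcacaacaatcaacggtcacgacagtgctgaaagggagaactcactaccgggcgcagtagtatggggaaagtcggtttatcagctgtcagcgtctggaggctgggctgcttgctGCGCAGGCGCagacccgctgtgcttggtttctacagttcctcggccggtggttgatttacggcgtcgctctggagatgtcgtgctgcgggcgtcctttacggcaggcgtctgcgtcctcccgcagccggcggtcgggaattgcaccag
Ndufaf4: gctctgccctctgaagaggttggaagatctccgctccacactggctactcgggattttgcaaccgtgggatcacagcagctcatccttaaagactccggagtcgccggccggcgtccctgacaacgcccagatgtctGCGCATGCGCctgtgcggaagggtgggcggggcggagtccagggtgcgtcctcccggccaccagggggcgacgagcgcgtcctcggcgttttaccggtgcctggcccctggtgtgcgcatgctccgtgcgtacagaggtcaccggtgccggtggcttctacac
The Sdha window held 3 copies, which ended 89, 46 and 1 bases before the start. The letters occurred in 4 of the 9 DEGs with a window and in 14 of the 65 other genes with one, so the windows of the genes that were not called held them too.

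At 24 h of reperfusion most OXPHOS genes lay close to their sham level. Of the 90 genes, 11 (12.2%) were DEGs, 2 higher (Cox6a2 and Ndufaf4) and 9 lower (among them Sdha, Atp5sl, Ndufb2, Ndufv1, Uqcrc1, Ndufaf7, Atp5d and Ndufs5), against 41.8% of all genes tested (21.8% higher, 19.9% lower). The groups did not overlap for 30 of the 90 (33.3%; I/R above for 5 and below for 25), against 57.4% of all genes (29.3% above, 28.1% below). The median log2 fold change (log2FC) was -0.08 (quartiles -0.24 and 0.04), beside 0.03 over all genes, and the outermost values were -0.69 (Sdha) and 0.73 (Cox6a2). For 69 of the 90 genes the 95% interval of the fold change lay inside 1.5-fold in both directions, which held for 27.2% of all genes. The median SE was 0.11, so a change of 1.5-fold was within reach of the test at that SE. Smaller changes could be missed, as Cyc1 at -0.36 (SE 0.13) was not called. Because OXPHOS genes are abundant, they were also set beside genes of similar level, those between 17.0 and 250 CPM. There 9 of 72 OXPHOS genes (12.5%) and 3955 of 7904 genes in all were DEGs, with median SEs of 0.10 and 0.11. The median log2FC in that range was -0.08 for both sets, so the OXPHOS median lay no lower than that of genes of similar level.

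**Figure D1:**
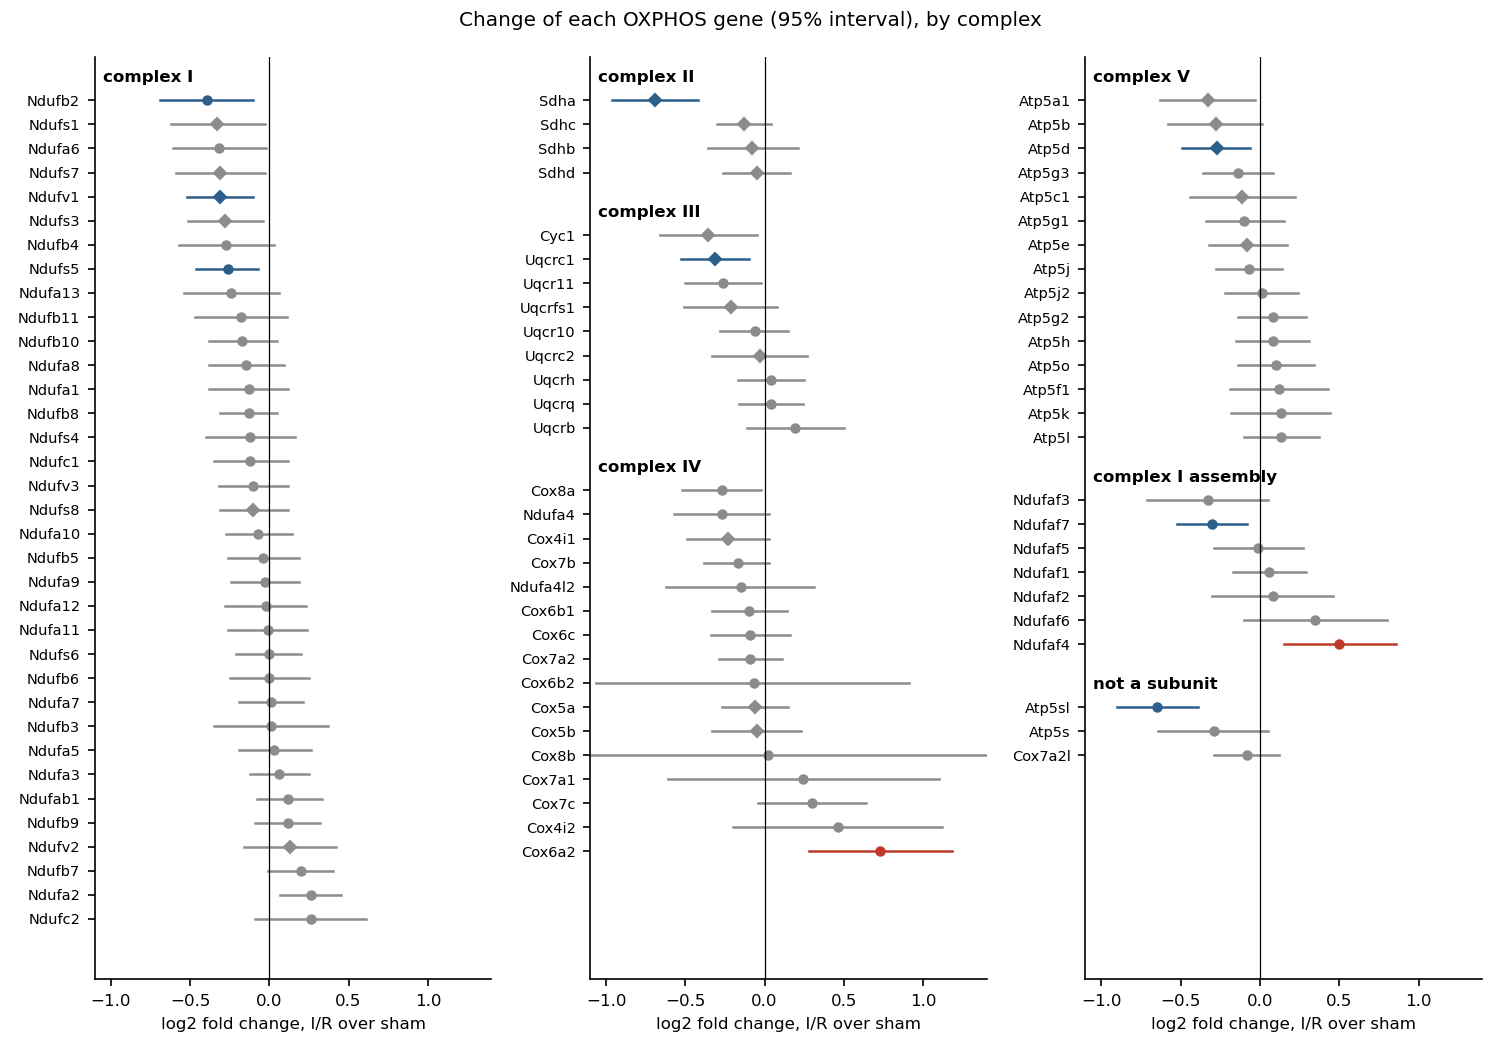
Log2FC of the OXPHOS genes, I/R over sham, with 95% intervals (horizontal axis), grouped by complex and ordered by value, with 1 gene not drawn. Diamonds are core subunits, blue and red are genes called lower and higher, grey are not called. The interval of Cox8b (-2.47 to 2.51) runs past the axis. Most points lie within 0.5 of 0, and Sdha is the lowest.

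The side of 0 on which a small change falls depended on the scaling of the libraries. TMM factors were 1.06 to 1.15 in I/R and 0.908 to 0.92 in sham. With library size only, the median over all genes moved from 0.03 to 0.28 and that of the OXPHOS genes from -0.08 to 0.18. Under that scaling 24 OXPHOS genes were DEGs, 22 higher and 2 lower (all genes 45.0%, 34.1% higher and 10.9% lower). The deposited FPKM, which hold no TMM factor, gave 25 (all genes 43.9%), and DESeq2 size factors gave the same 11 as TMM (all genes 41.8%). In both scalings the OXPHOS median lay under the median of all genes. A change of library scaling shifts all genes nearly alike, so it could hardly alter that order. Among genes between 17.0 and 250 CPM there was no such order under TMM, as both medians were -0.08. Sdha and Atp5sl stayed lower and Cox6a2 and Ndufaf4 stayed higher under library size only, and the other 7 calls were lost there, with values from -0.14 to -0.01. As a share of all counts, with no scaling, the 90 genes made up 1.33, 1.37 and 1.37% in I/R replicates 1 to 3 and 1.22, 1.32 and 1.25% in the sham replicates. After TMM scaling their summed level was 11550, 12820 and 12920 CPM after I/R and 13210, 14540 and 13640 CPM in sham, 12430 ± 762 against 13790 ± 681 (SD, n = 3 each). The 2 measures of the summed level thus point to opposite sides.

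**Figure D2:**
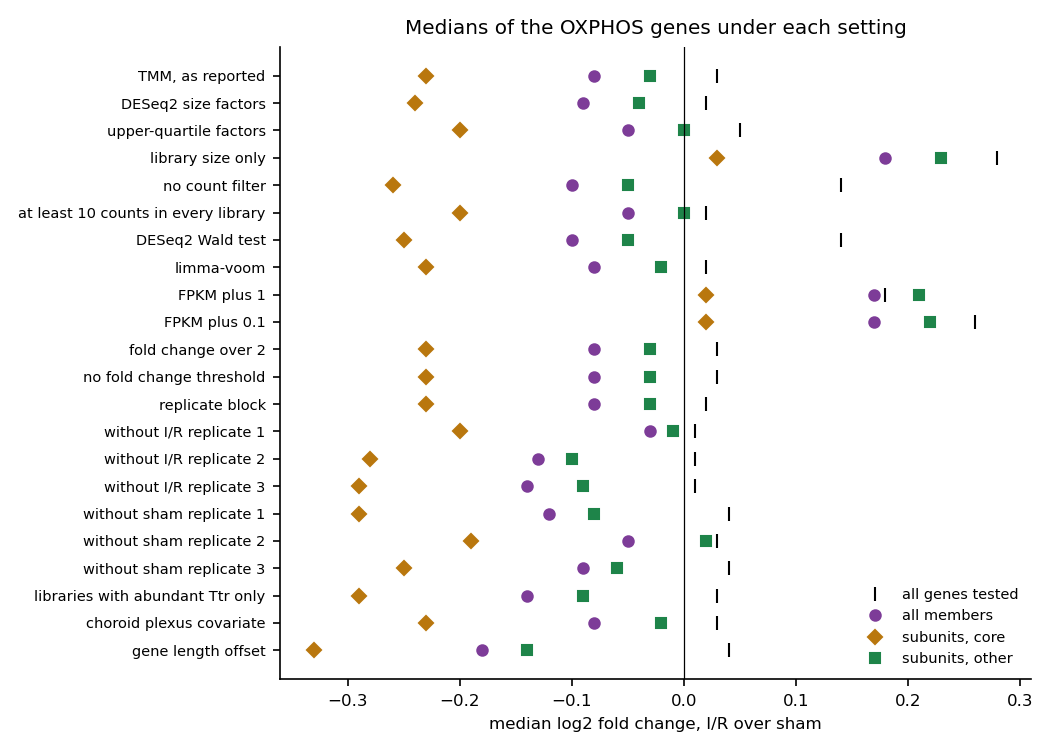
Median log2FC (horizontal axis) of all genes tested, of all 90 OXPHOS genes and of core and other subunits, under TMM and each alternative setting (rows). The core median (orange diamonds) lies left of the median of the other subunits (green squares) in every row. All 3 OXPHOS medians move to the right of 0 with library size only, where that of all genes is 0.28.

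Complex II stood apart in its summed level through a single subunit. Sdha, the flavoprotein that oxidises succinate, had 325, 378 and 395 CPM in the I/R replicates and 578, 617 and 575 CPM in the sham replicates. Every I/R library was below every sham library, by more than the spread within either group. The log2FC was -0.69 (SE 0.12, edgeR adjusted p = 0.00317), or 0.62 of the sham level, and the call held in 20 of 21 alternatives, all but a rule of fold change over 2. The gene (MGP_BALBcJ_G0020716) spans 72643707 to 72672249 on chromosome 13 of the BALB/cJ assembly, whose annotation the table uses, and the 1 gene that overlaps it there had 5 reads in all. Sdhb, the iron-sulfur subunit that receives the electrons, had 106, 142 and 140 CPM after I/R and 131, 145 and 133 CPM in sham (log2FC -0.08, SE 0.12, edgeR adjusted p = 0.655). Sdhc and Sdhd, which anchor the enzyme in the membrane, had log2FC values of -0.13 and -0.05 (SE 0.07 and 0.09). The 3 Sdhc values in I/R (83.2 to 87.8 CPM) lay just under those in sham (89.4 to 95.9 CPM), and those of Sdhd overlapped. No test of Sdha against the other 3 subunits was made. The 95% interval for Sdha was -0.96 to -0.42. The summed level of complex II was 664.3 ± 64.1 CPM after I/R against 906.4 ± 39 CPM for sham (SD, n = 3), a log2 ratio of -0.45. For complexes I, III, IV and V the same ratio was -0.10, -0.13, -0.13 and -0.16.

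Complex I had 4 DEGs among 36 genes, all lower, where 41.8% of all genes were DEGs and 19.9% were lower. Its core is a flavoprotein tip with Ndufv1 and Ndufv2 and a chain of iron-sulfur and quinone-binding subunits that include Ndufs1, Ndufs3, Ndufs7 and Ndufs8. Ndufv1, which binds NADH, had 138, 150 and 154 CPM after I/R and 178, 195 and 176 CPM in sham (log2FC -0.31, SE 0.09, edgeR adjusted p = 0.0257). The groups did not overlap. Ndufs1, Ndufs7 and Ndufs3 had log2FC values of similar size, -0.33, -0.31 and -0.28, that missed the threshold (edgeR adjusted p of 0.0759, 0.0752 and 0.0632). Ndufs1 was at 98.1, 128 and 135 CPM after I/R and 153, 159 and 141 CPM in sham, so I/R replicate 1 was well under the other libraries. On the opposite strand Ndufs1 overlaps Eef1b2, which had 7675 to 10817 counts after I/R and 4514 to 5656 in sham. Ndufs8 had -0.10 (SE 0.09). Ndufv2, which sits beside Ndufv1 in the tip, was the only core subunit of the 23 in complexes I to V with a value above 0: 124, 159 and 173 CPM after I/R and 141, 140 and 136 CPM in sham, a log2FC of 0.13 with an SE of 0.13 and overlapping groups.

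The other 29 subunits of complex I, which surround the core, ranged from -0.39 to 0.26 with a median of -0.04. Ndufb2 had 12.8, 16.9 and 16.3 CPM after I/R and 20.1, 20.2 and 20.1 CPM in sham (log2FC -0.39, SE 0.13, edgeR adjusted p = 0.0401). Ndufs5 was at 104, 108 and 111 CPM after I/R and 122, 138 and 127 CPM in sham (log2FC -0.26, SE 0.08, edgeR adjusted p = 0.0344). At the upper end, Ndufa2 had 113, 101 and 104 CPM after I/R and 85.9, 92.7 and 86.8 CPM in sham. Its log2FC of 0.26 (SE 0.08, edgeR adjusted p = 0.0328) fell just short of the fold change rule. Ndufb7 and Ndufb9 also lay above sham in every I/R library, with 0.20 and 0.12, without passing the test. Ndufa13, Ndufa6 and Ndufb4 had values from -0.32 to -0.24, and Ndufb3, Ndufa5, Ndufa7, Ndufa9, Ndufa11, Ndufa12, Ndufb5, Ndufb6 and Ndufs6 lay within 0.04 of 0. Ndufb11, Ndufb10, Ndufa8, Ndufa1, Ndufb8, Ndufc1, Ndufs4, Ndufv3 and Ndufa10 ran from -0.18 to -0.07, and Ndufa3, Ndufab1 and Ndufc2 from 0.06 to 0.26. Ndufb2 (4207 reads) overlaps Braf (38666 reads) on the opposite strand, and their reads cannot be told apart if strand was not used.

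The assembly factors of complex I, which help to put it together and are absent from the finished enzyme, moved in both directions. Ndufaf4 had 34.9, 49.0 and 51.3 CPM after I/R and 34.7, 28.9 and 31.8 CPM in sham (log2FC 0.50, SE 0.16, edgeR adjusted p = 0.0320). Its groups were separated only narrowly, as the lowest I/R library, replicate 1, was just above the highest sham library, replicate 1. Ndufaf7, a methyltransferase, had 30.0, 32.8 and 33.4 CPM after I/R and 36.4, 40.5 and 41.7 CPM in sham (log2FC -0.30, SE 0.10, edgeR adjusted p = 0.0351). Ndufaf1, Ndufaf2 and Ndufaf5 lay between -0.01 and 0.08, Ndufaf3 at -0.33 (SE 0.16) and Ndufaf6 at 0.35 (SE 0.19), the last 2 with overlapping groups.

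In complex III, Uqcrc1, a large matrix-side core protein, was the single DEG of 9 genes, where 41.8% of all genes were DEGs. It was at 186, 208 and 209 CPM after I/R and 240, 260 and 248 CPM in sham (log2FC -0.31, SE 0.09, edgeR adjusted p = 0.0294). Uqcrc2, its partner, had -0.03 (SE 0.13), with I/R replicate 1 at 188 CPM and the other 5 libraries at 226 to 254 CPM. Of the subunits that carry electrons, Cyc1 (cytochrome c1) had 120, 162 and 162 CPM after I/R and 178, 202 and 188 CPM in sham, so that the groups did not overlap, with a log2FC of -0.36 that missed the threshold (SE 0.13, edgeR adjusted p = 0.0613). Uqcrfs1, the Rieske iron-sulfur protein, had -0.21 (SE 0.13). The small subunits Uqcr11, Uqcr10, Uqcrh, Uqcrq and Uqcrb ran from -0.26 to 0.19, and only Uqcr11 had groups that did not overlap.

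Complex IV had 1 DEG among 16 genes, where 41.8% of all genes were DEGs, and its isoforms differed widely in level. Several of its subunits have a ubiquitous form and a form known from heart and skeletal muscle, lung or testis. Cox6a2, the muscle form of subunit VIa, which is also known from a class of inhibitory neurons, had 19.4, 12.3 and 12.4 CPM after I/R and 9.02, 9.10 and 8.40 CPM in sham, with a log2FC of 0.73 (SE 0.20, edgeR adjusted p = 0.0189). All I/R libraries were above all sham libraries, and replicate 1 was highest; without it the log2FC was 0.48. The gene lies on chromosome 7 from 128714354 to 128715306 (BALB/cJ). An unnamed gene on the opposite strand overlaps Cox6a2 in the table. It had 371, 296 and 254 counts after I/R and 65, 70 and 56 in sham, where Cox6a2 had 881, 492 and 494 and 352, 370 and 289 counts. Whether the counting used strand is not stated, so the reads of these genes cannot be told apart. Skeletal muscle markers summed to 8.005 to 10.55 CPM after I/R and 6.939 to 7.889 CPM in sham, and their part in the Cox6a2 result was not tested. Cox4i1 and Cox4i2, the common and the lung form of subunit IV, were at 671 and 2.07 FPKM in I/R (deposited length-scaled values, mean of 3 libraries after TMM scaling) and 789 and 1.50 FPKM in sham. Cox4i1 had a log2FC of -0.23 (SE 0.11, edgeR adjusted p = 0.134) with no overlap, at 375 to 430 CPM after I/R and 435 to 499 CPM in sham. Cox4i2, known to respond to low oxygen, had 1.82, 1.2 and 1.50 CPM after I/R and 0.973, 1.21 and 1.10 CPM in sham (log2FC 0.46, SE 0.29, edgeR adjusted p = 0.231), with groups that overlapped by a narrow margin.

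The remaining isoforms showed no called change. Cox8a, the common form of subunit VIII, had 773 FPKM in I/R and 930 FPKM in sham (log2FC -0.27, SE 0.11, edgeR adjusted p = 0.0817). Cox8b, a form of heart and skeletal muscle, followed the choroid plexus markers across libraries rather than the groups: it had 3.95, 8.63 and 0.35 CPM after I/R and 0.359, 5.68 and 6.74 CPM in sham. The libraries low in Cox8b were those with few choroid plexus reads. Cox6b2 was also lowest in those libraries, at 2.50 CPM (I/R replicate 3) and 2.05 CPM (sham replicate 1) against 4.75 to 5.78 CPM elsewhere, and so was Cox7a1 (1.90 and 1.84 CPM against 2.68 to 4.70 CPM). With a choroid plexus covariate in the fit, Cox8b, Cox6b2 and Cox7a1 had log2FC values of 0.66, 0.16 and 0.32 (SE 0.32, 0.20 and 0.27). Their SEs without the covariate were 1.08, 0.43 and 0.37, and none of these genes was called in either fit. Whether choroid plexus tissue was the source of these reads was not tested. The forms common to most tissues, Cox6b1, Cox7a2 and Cox7b, had log2FC values of -0.10, -0.09 and -0.17. Ndufa4 had 176, 221 and 242 CPM after I/R and 249, 271 and 249 CPM in sham (log2FC -0.27, SE 0.13, edgeR adjusted p = 0.137), and Ndufa4l2, a hypoxia-inducible relative, was near 2.5 CPM in all libraries (2.18 to 2.69) with a log2FC of -0.15 (SE 0.20). Ndufa4l2 (590 reads) overlaps Shmt2 (8530 reads) on the opposite strand, which had 1650 to 2503 counts after I/R and 653 to 924 in sham. Cox5a, Cox5b and Cox6c lay between -0.09 and -0.05. Cox7c had 0.30 (SE 0.15), with I/R replicate 1 at 178 CPM among the sham values of 182 to 193 CPM and the other I/R libraries at 249 and 264 CPM.

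Complex V had 1 DEG among 15 genes, where 41.8% of all genes were DEGs. Its catalytic head contains the alpha and beta subunits (Atp5a1 and Atp5b) around a stalk of gamma, delta and epsilon (Atp5c1, Atp5d and Atp5e). Atp5d had 182, 190 and 183 CPM after I/R and 209, 241 and 221 CPM in sham (log2FC -0.27, SE 0.09, edgeR adjusted p = 0.0430). On the opposite strand it overlaps Cbarp, which had 5679 to 8896 counts after I/R and 14120 to 18117 in sham. Atp5b, per length the most abundant of the 90 transcripts in the deposited FPKM, had 1190, 1320 and 1300 CPM after I/R and 1480, 1630 and 1540 CPM in sham. With the full gene length as divisor Cox8a came first, at 930 CPM per kilobase in sham against 809 for Atp5b. The groups were apart, but its log2FC of -0.28 missed the threshold (SE 0.13, edgeR adjusted p = 0.113), as did the -0.33 of Atp5a1 (SE 0.13, edgeR adjusted p = 0.076). Atp5c1 and Atp5e had -0.11 and -0.08. The genes Atp5g1, Atp5g2 and Atp5g3 encode the same ring protein with different targeting sequences. Their log2FC values were -0.10, 0.08 and -0.14 (SE 0.11, 0.09 and 0.10), and in FPKM Atp5g3 was the highest (310 in I/R, 342 in sham), followed by Atp5g2 (176 and 167) and Atp5g1 (81.6 and 87.3). The subunits of the stator and membrane part, Atp5f1, Atp5h, Atp5j, Atp5j2, Atp5k, Atp5l and Atp5o, ran from -0.07 to 0.13 with overlapping groups. Atpif1, the inhibitor protein of ATP synthase, which the name rule leaves out, had -0.21 (SE 0.15, edgeR adjusted p = 0.284).

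Among the 3 genes that are not subunits, Atp5sl (now Dmac2, an assembly factor of complex I despite its name) had 21.8, 26.4 and 27.2 CPM after I/R and 38.0, 40.8 and 39.3 CPM in sham. Its log2FC of -0.65 (SE 0.11, edgeR adjusted p = 0.00303) (chromosome 7, 23731796 to 23737933, BALB/cJ) was the second lowest of the 90, and like Sdha it was called in 20 of 21 alternatives. Its relative Atp5s had -0.29 (SE 0.15, edgeR adjusted p = 0.153), and Cox7a2l, which joins complexes III and IV into supercomplexes, had -0.08 (SE 0.09).

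**Figure D3:**
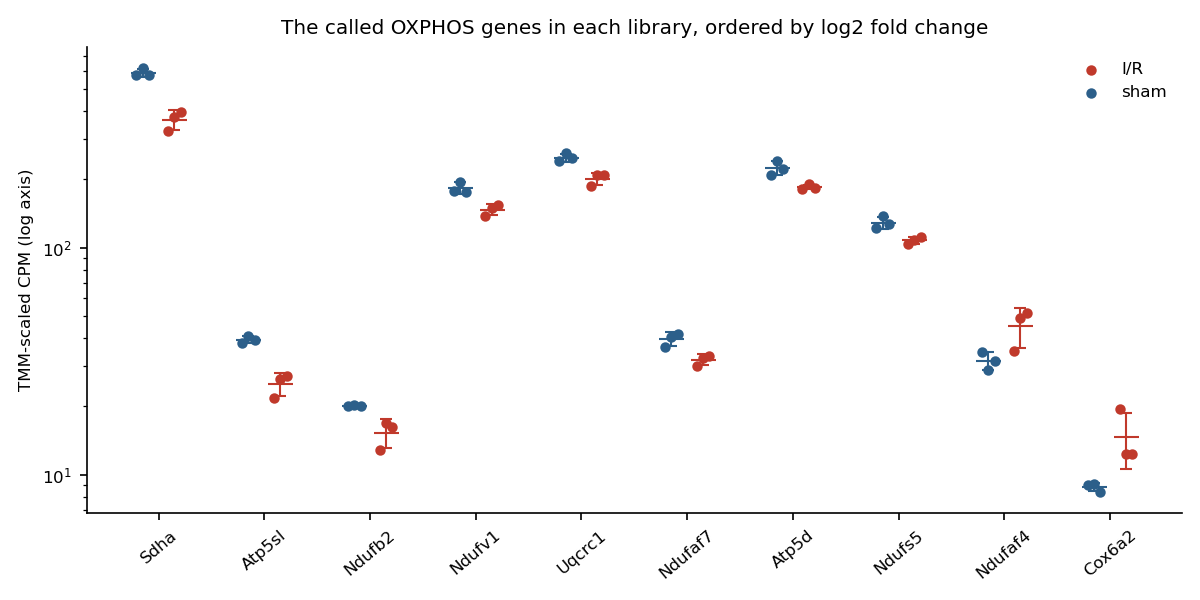
TMM-scaled CPM (vertical log axis) of the called OXPHOS genes in each library, with 1 gene not drawn, sham in blue and I/R in red. Points are libraries, bars are means ± SD of 3. In the genes drawn the points of the groups do not overlap, narrowly for Ndufaf4.

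Split by role, the core subunits had a lower median than the rest, while the share of them called lower was near that of all genes. Of 23 core subunits, 5 (21.7%) were called lower, against 19.9% of all genes, and 0 higher (21.8%). Among them, 10 had an unadjusted p under 0.05 (50.5% of all genes), 22 had a value below 0, and the groups did not overlap for 12, all with I/R below (28.1% of all genes). Their median log2FC was -0.23. Of the other 57 subunits, 1 was called higher and 2 lower, 25 lay above and 32 below 0, 14 had groups that did not overlap (4 above, 10 below), and the median was -0.03. In complexes I, III and V the core medians were -0.31, -0.26 and -0.27 and the others -0.04, 0.04 and 0.08. In complex IV, whose catalytic core is mitochondrially encoded and whose core here is only Cox4i1, Cox5a and Cox5b, the medians were -0.06 and -0.09. This comparison is by counts and medians, with no test between the sets. The core median was lower than the other median in each of the 21 alternatives, which reuse the same libraries. The alternative fold rules keep the TMM fit, and another library scaling moves both medians nearly alike. Those settings could therefore not alter the order, and the 21 are not independent checks of it. With library size only the core median was 0.03, the other 0.23 and that of all genes 0.28. Of the 23 core genes 1 was then called higher and 1 lower, and of the 57 others 18 and 0. Over all genes 34.1% were called higher and 10.9% lower under that scaling.

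Transcript length moved with the result. Core subunits had a median gene model of 1470 bases and the other subunits of 857, against 2880 over all genes tested, and 60 of the 90 OXPHOS genes were in the shortest of 5 equal length classes (1456 bases or less). From the shortest to the longest class over all genes, the median log2FC went 0.17, 0.07, 0.04, -0.02 and -0.09. In a fit that corrects each library for gene length, 24 OXPHOS genes were DEGs (all genes 41.2%), 3 higher (22.5%) and 21 lower (18.7%), and the core and other medians were -0.33 and -0.14. The correction thus moved the OXPHOS genes further below 0 and left the core genes below the others.

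The libraries did not contribute alike. I/R replicate 1 was the lowest of the I/R libraries for 62 of the 90 genes, and in sham replicate 2 was highest for 72 and replicate 1 lowest for 59. Over the 90 genes the coefficient of variation had a median of 8.88% among I/R libraries and 5.99% among sham libraries. The number of DEGs among the 90 genes was 14 without I/R replicate 1 (all genes 42.6%), 6 without I/R replicate 2 (34.3%) and 17 without I/R replicate 3 (40.2%). Without sham replicate 1 it was 4 (29.3%), and without sham replicate 2 (27.8%) or sham replicate 3 (28.5%) it was 2, Sdha and Atp5sl in both cases. The calls of Cox6a2 and Ndufaf4 were thus lost without any of the 3 sham libraries, and that of Ndufaf4 also without I/R replicate 2 or 3. Without the 2 libraries poor in choroid plexus reads it was 4, all lower and with Sdha, Atp5sl and Ndufs3 among them (all genes 27.9%). The calls of Ndufv1, Uqcrc1, Atp5d, Ndufb2, Ndufs5 and Ndufaf7 were lost there and also with a choroid plexus covariate. Of the 21 alternatives, Ndufs5 was called in 5, Atp5d in 6, Uqcrc1 in 9, and Ndufv1, Ndufb2 and Ndufaf7 in 10 each.

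Neuron, endothelium and monocyte markers changed by more than most OXPHOS genes. Of 9 neuron markers, 8 were DEGs and lower (19.9% of all genes), with a median log2FC of -1.02, and their summed level was 2745, 5519 and 6168 CPM after I/R and 13120 to 13400 CPM in sham, lowest in the library that was also lowest for most OXPHOS genes. Of 8 markers of hippocampal regions, 6 were lower. Endothelium markers were higher for 5 of 5 (median log2FC 0.76, summed 278.1 to 451.2 CPM against 177 to 177.9) and monocyte and macrophage markers for 4 of 5 (median 2.12, summed 28.97 to 58.55 CPM against 9.656 to 12.82). The part of cell composition in the OXPHOS values was not tested, and in bulk tissue fewer cells of a type and less RNA per cell cannot be told apart.

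**Figure D4:**
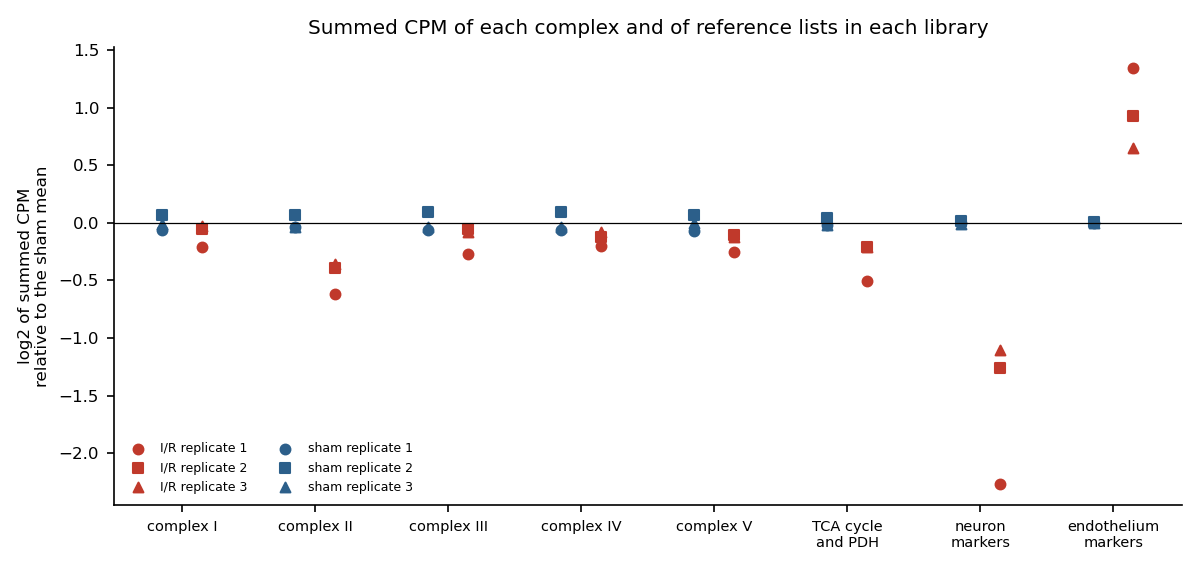
Summed CPM of each complex, of the TCA cycle list and of neuron and endothelium markers in each library, as log2 relative to the sham mean (vertical axis). Red symbols are I/R and blue are sham, and the shape gives the replicate. The complexes other than II stay within about 0.3 of the sham mean, while neuron markers in I/R lie more than 1 below it.

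The genes that supply, build and regulate the chain were followed in 5 lists. Of 17 regulators tested, 8 (47.1%) were higher, against 21.8% of all genes, and 3 (17.6%) were lower, near the 19.9% of all genes. Pprc1, a PGC-1-related coactivator, had 58.6, 42.5 and 38.2 CPM after I/R and 22.1, 23.5 and 22.8 CPM in sham (log2FC 1.03, SE 0.16, edgeR adjusted p = 0.00222). Gabpb1, a subunit of GABP, followed with 0.68 (SE 0.13, edgeR adjusted p = 0.00506). Gabpa, Nrf1 and Tfam, which encode the DNA-binding subunit of GABP, NRF1 and the packaging factor of mitochondrial DNA, rose by 0.60, 0.42 and 0.29. Ssbp1, Polg2 and Mterf3, which act on mitochondrial DNA or its transcription, rose by 0.65, 0.62 and 0.49. In contrast Ppargc1a (PGC-1 alpha) had 26.1, 39.1 and 39.1 CPM after I/R and 54.4, 47.2 and 55.6 CPM in sham (log2FC -0.59, SE 0.16, edgeR adjusted p = 0.0213). Ppargc1b (PGC-1 beta) had -0.92 (SE 0.15, edgeR adjusted p = 0.00286), and Esrra, which encodes ERR alpha, -0.32. Under library size only the 8 rises were 0.54 to 1.29, and of the 3 falls only that of Ppargc1b was still called, with Esrra at -0.06. Yy1 had -0.01 (SE 0.10). The list had 11 calls, 6 with I/R replicate 2 left out and 7 with I/R replicate 3 left out. For sham, it was 6 without replicate 1 or 2 and 5 without replicate 3.

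Assembly factors of complexes II to V were mostly not called. Of 34 tested, 1 (2.94%) was higher and 9 (26.5%) were lower, against 21.8% and 19.9% of all genes. The balance turned under library size only, where 7 were higher and 5 lower (34.1% and 10.9% of all genes). Higd2a, a complex IV assembly factor, had 35.3, 53.3 and 59.7 CPM after I/R and 77.5, 84.2 and 84.4 CPM in sham (log2FC -0.73, SE 0.18, edgeR adjusted p = 0.0128), and Ttc19 of complex III had -0.66 (SE 0.16, edgeR adjusted p = 0.0117). The other falls were Lyrm7, Coa3, Atpaf1, Coa5, Bcs1l, Taco1 and Cox14, from -0.60 to -0.27. Slirp, which stabilises mitochondrial messenger RNA, rose by 0.60 (SE 0.11, edgeR adjusted p = 0.00456). Of the 11 complex I assembly genes in the list, none named Ndufaf, edgeR called 0, and 1 had an unadjusted p under 0.05. Atp5sl, the complex I assembly factor described above that was called lower (log2FC -0.65), is not in this list. Library size only called 3. Without sham replicate 2 the 10 calls for complexes II to V became 5.

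The TCA cycle, which feeds electrons to the chain and shares Sdha with it, and pyruvate dehydrogenase had 0 higher (21.8% of all genes) and 5 lower of 17, or 29.4% against 19.9% of all genes. Pdha1, a subunit of pyruvate dehydrogenase, had 124, 160 and 174 CPM after I/R and 206, 216 and 210 CPM in sham (log2FC -0.46, SE 0.13, edgeR adjusted p = 0.0234). Idh3g, Idh3b and Cs had -0.42, -0.36 and -0.30. Under library size only 2 genes of this list (11.8%) were higher and 1 (5.88%) was lower, against 34.1% and 10.9% of all genes. Without a sham library 1 (replicate 1 or 2) or 2 (replicate 3) were called.

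Among 18 genes of membrane transport and energy transfer, 2 (11.1%) were higher and 6 (33.3%) lower, against 21.8% and 19.9% of all genes. Here too the balance turned under library size only, with 8 (44.4%) higher and 5 (27.8%) lower. Over all genes these shares were 34.1% and 10.9%. Ucp2, an uncoupling protein of the inner membrane expressed in immune cells among others, had 243, 149 and 97.4 CPM after I/R and 27.4, 42.4 and 54.3 CPM in sham (log2FC 1.98, SE 0.36, edgeR adjusted p = 0.00381). Tomm22, of the import pore, rose by 0.31 (SE 0.09, edgeR adjusted p = 0.0226). The mitochondrial glutamate carrier Slc25a22 had 118, 159 and 176 CPM after I/R and 303, 327 and 303 CPM in sham (log2FC -1.04, SE 0.15, edgeR adjusted p = 0.00170), and Ckmt1, mitochondrial creatine kinase, had -0.98 (SE 0.17, edgeR adjusted p = 0.00349). Tomm20, Slc25a11, Slc25a12 and Ckb fell by 0.58, 0.58, 0.56 and 0.39. The ATP/ADP carriers Slc25a4 and Slc25a5 had -0.29 (SE 0.14) and 0.21 (SE 0.08), neither of which was called, and the phosphate carrier Slc25a3 had 0.01 (SE 0.10).

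**Figure D5:**
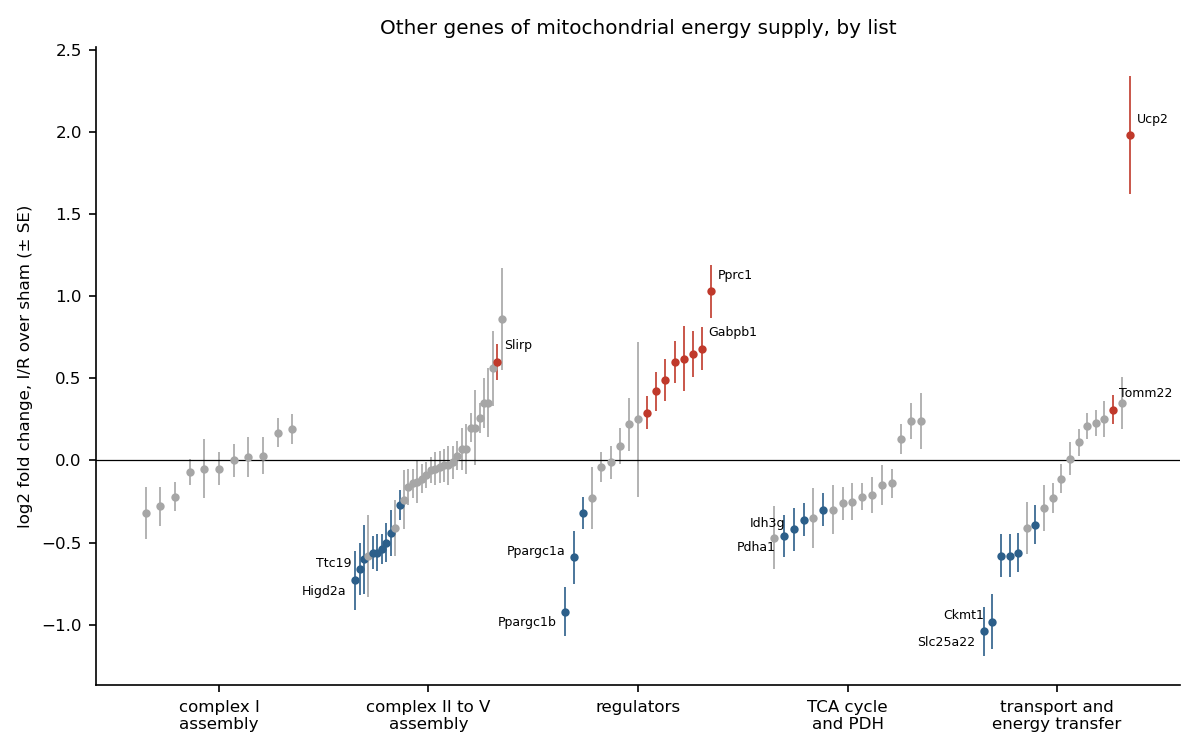
Log2FC ± SE, I/R over sham (vertical axis), of the tested genes in the 5 lists, with 1 gene not drawn, ordered within a list. Red is called higher, blue called lower and grey not called. The regulators hold 8 red and 3 blue points, the TCA cycle list blue and no red points.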

How the data were processed

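RNA was extracted from hippocampi and sequenced as 6 libraries, 3 I/R and 3 sham, each a pool of 3 hippocampi. Groups and replicate numbers were read from sample titles. As the study's methods state, the authors aligned reads with TopHat2 to an Ensembl genome and counted them per gene with HTSeq, and the deposited table holds these raw read counts. The submitters' processing notes name Bowtie 0.12.2 and mm8, while the gene identifiers are those of Ensembl's BALB/cJ annotation, so gene coordinates are of that assembly although the mice were C57BL/6. The deposited FPKM values were computed by the authors from the counts with a gene length that was at most the length column and often shorter (Sdha 747 of 2898 bases), which raises such genes in comparisons of FPKM. Use of strand and the treatment of reads that fit several places are not stated. OXPHOS genes have many processed pseudogenes, so such reads could lower their counts. Of the 90 genes, 28 overlap another gene with reads. Columns with the authors' own comparison of the groups (fold change, p-value and adjusted p-value) were not used.

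Split lines were rejoined (41390 lines, 41386 genes). The test of the counts was that of edgeR 4.0.16, R 4.3.3 (filterByExpr, TMM, glmQLFit with robust estimation, glmQLFTest, no covariates), with Benjamini-Hochberg adjustment over 18569 genes and a fold change over 1.2 as in the study's plot. SEs of log2FC (log2 fold change) were obtained as |log2FC| over the root of the F statistic. The fit was tested on simulated counts. Intervals are at 95% and cover the spread between libraries, which are few. Alternatives were other scalings (DESeq2 1.42.0 size factors, upper-quartile, library size only, a gene length offset), other tests (DESeq2 Wald test, limma-voom with limma 3.58.1, limma on log2 FPKM plus 1 or plus 0.1), other filters and fold rules, a replicate block, a choroid plexus covariate, and leaving out libraries. The FPKM settings use no TMM factors.

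The 90 genes, the 5 pathway lists and the marker lists were chosen with earlier results of these data known, and the 6 promoter motifs after the fit had been seen, so no list was given a test of its own. Any of the 90 genes could be named; full values were planned for core subunits, isoform pairs and the largest called changes of each complex, and in each pathway list for the 2 largest called rises and falls. Promoter windows were those of RefSeq on GRCm38.p6, and no gene coordinate was carried between assemblies. Markers of striatum (1 higher, 1 lower of 6), microglia (2 and 2 of 5), neutrophils (3 and 0 of 4), astrocytes (2 and 3 of 6), oligodendrocytes (0 and 1 of 5), pericytes (2 and 2 of 7), choroid plexus (0 and 1 of 10), skeletal muscle (0 and 0 of 3) and erythrocytes (0 and 0 of 1) were counted in the same way. The values of 2 genes are not reported here, though they count in the totals.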

Additional observations from a re-analysis of the deposited data

How the results depend on the processing

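The total of 7756 DEGs became 2760 with a fold change over 2. Of the OXPHOS genes (2 higher, 9 lower), 22 were called higher and 2 lower with library size only, 23 and 2 with FPKM plus 1 and with FPKM plus 0.1, 0 and 0 with a fold change over 2, 0 and 4 without the 2 libraries poor in choroid plexus reads, and 2 and 3 with a choroid plexus covariate. With the gene length offset 21 were lower. Leaving out 1 library gave 0 to 5 higher and 2 to 16 lower. The 2 higher calls were lost without any 1 sham library, and the extremes for lower calls were without I/R replicate 3 (16) and without sham replicate 2 or sham replicate 3 (2 each). No called gene changed sign while still called in any alternative.

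Of the pathway lists, complex I assembly (0 calls) had 3 with library size only and with either FPKM setting, and 1 with the gene length offset. Assembly of complexes II to V (1 higher, 9 lower) had 7 higher and 5 lower with library size only, 0 calls with a fold change over 2 and 5 to 11 without 1 library. The regulators (11) had 1 with a fold change over 2, 5 without the libraries poor in choroid plexus reads, and 5 to 11 without 1 library. The TCA list (5) had 3 with library size only and with FPKM plus 1, 0 with a fold change over 2, 1 without the libraries poor in choroid plexus reads, and 1 to 6 without 1 library. Transport (2 higher, 6 lower) had 13 calls with library size only (8 higher, 5 lower) and 13 with FPKM plus 0.1, 2 with a fold change over 2, and 6 to 9 without 1 library. The cause of these shifts was not tested.

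Deviations of same-numbered libraries correlated at -0.0967, 0.0556 and -0.184. Those of unlike-numbered libraries ran from -0.171 to 0.267, the highest for I/R replicate 3 with sham replicate 1. These values gave no sign of pairing by replicate number, but they are too few to exclude it. With the replicate number as a block, 1 OXPHOS gene was called higher and 3 lower (Cox6a2, Atp5sl and Sdha among them), 6 regulators and 2 TCA genes were called, and 6332 genes in all. With 3 pools a group the median SE was 0.11. The smallest OXPHOS change called was -0.26 (Ndufs5), and Cyc1 at -0.36 was not called.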
